A study of Mus musculus with 8 samples.

Results

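Matrix metalloproteinases are zinc-dependent enzymes that are made as inactive precursors and, once activated, cut collagens, elastin, proteoglycans and many secreted signaling proteins. Tissue inhibitors of metalloproteinases (TIMPs) bind the active site of these enzymes, so the balance between both families governs how fast the matrix of the airway wall and alveoli turns over. In allergic airway disease both families are studied in connection with the recruitment of leukocytes and the remodeling of the airway. The group described here holds 10 genes, chosen by name from the family: the proteinases Mmp2, Mmp3, Mmp8, Mmp9, Mmp12, Mmp14 and Mmp19 (7 genes) and the inhibitors Timp1, Timp2 and Timp3 (3 genes). They are 10 of the 22911 named genes with a probe on the arrays, and all 10 were measured.

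RNA was taken from the lungs of 8 female BALB/c mice, 2 per group, and each mouse was measured on 1 single-color array. NT mice received standard feed and no ovalbumin (OVA). Ctrl-F mice received standard feed and OVA, Cap-F mice a feed with control particles (carbonate apatite without oligodeoxynucleotide) and OVA, and ODNcap-F mice a feed with CpG-oligodeoxynucleotide-loaded carbonate apatite particles and OVA. Mice were bought at 4 weeks of age, housed for 2 weeks and then fed freely for 70 days. OVA was injected intraperitoneally with aluminum gel on Days 42, 49 and 56 and inhaled as a 2% aerosol from Day 63 to Day 69, and the lungs were taken on Day 70, with 24 h between the last inhalation and collection. NT therefore differs from Ctrl-F by the whole course of injection and inhalation, whereas Cap-F and ODNcap-F differ from Ctrl-F by the feed.

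The arrays lay on 1 slide, with NT and Ctrl-F in one row and Cap-F and ODNcap-F in the other, so that row and group cannot be told apart where groups from different rows are compared. Between 61.3% and 65.0% of the probes on an array were well above background, and the values of the 2 mice of a group correlated at 0.9937 to 0.9957 over 37116 kept probes. As a check of the tissue, the log2 mean of 8 lung epithelial markers (Sftpc, Sftpb, Sftpa1, Scgb1a1, Scgb3a2, Ager, Hopx and Foxj1) was 15.82 and 15.88 for NT and between 14.79 and 15.08 in the OVA-challenged mice. Signal levels below are log2 intensities after quantile normalization, and a difference of 1 is a 2-fold change. Levels of different probes cannot be compared with each other. A gene was called where the Benjamini-Hochberg adjusted p over all kept probes was under 0.05 (limma) and the fold change was over 2. With 2 mice per group, an exact permutation test of 1 gene cannot go below p = 0.333, so the tests borrow the spread of all probes.

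Promoter sequence was looked up for the members, since the family holds neighbors on the same chromosome that moved differently. RefSeq promoter windows (GRCm38.p6, the 250 bases before an annotated start) were found for 7 of the 10 genes, with 8 start sites in all because Mmp12 has 2. Mmp2, Mmp9 and Mmp19 had no entry. Both strands were searched for TGANTCA, the element bound by AP-1 (Fos and Jun proteins) and known from proteinase promoters, and for TATAAA, the TATA box. Mmp12 and Mmp3 are shown because they were the members that held a TGANTCA match, and Timp1 because it was the called inhibitor that was higher. In the sequences, read 5′ to 3′ on the plus strand, capitals mark the matches.

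Mmp12, second start site, chr9:7347124-7347373 (+): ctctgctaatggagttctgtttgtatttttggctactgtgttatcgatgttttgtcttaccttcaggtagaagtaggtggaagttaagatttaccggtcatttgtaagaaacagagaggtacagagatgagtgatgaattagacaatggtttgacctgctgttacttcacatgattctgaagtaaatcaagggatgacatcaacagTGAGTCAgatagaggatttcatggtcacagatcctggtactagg

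Mmp3, chr9:7445572-7445821 (+): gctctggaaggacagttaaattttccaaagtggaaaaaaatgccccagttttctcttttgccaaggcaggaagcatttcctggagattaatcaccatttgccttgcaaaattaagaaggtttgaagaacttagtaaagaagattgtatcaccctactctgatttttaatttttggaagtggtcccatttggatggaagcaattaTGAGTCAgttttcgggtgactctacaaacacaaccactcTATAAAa

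Timp1, chrX:20869916-20870165 (+): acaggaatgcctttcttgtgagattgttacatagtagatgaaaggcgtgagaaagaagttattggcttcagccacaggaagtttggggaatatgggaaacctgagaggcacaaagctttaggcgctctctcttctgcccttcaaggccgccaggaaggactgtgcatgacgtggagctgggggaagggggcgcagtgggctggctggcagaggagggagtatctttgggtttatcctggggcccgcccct

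The match was TGAGTCA in both proteinase windows and ended 37 bases before the annotated start in Mmp12 and 39 bases before it in Mmp3, where a TATAAA followed 1 base before the start. The first start site of Mmp12 and the windows of Mmp8, Mmp14, Timp1, Timp2 and Timp3 held neither motif. Of all 32851 promoter windows of the same length, 6.75% held TGANTCA and 12.4% held TATAAA. The windows also differed in base composition. GC content was 37.6% in Mmp3, 40% and 39.6% in the 2 Mmp12 windows and 44.8% in Mmp8, against 54.4% in Timp1, 55.2% in Mmp14, 65.6% in Timp3 and 68% in Timp2, with a median of 52.4% over all windows.

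OVA-challenged lungs differed from NT in 6 of the 10 genes in each feeding group. Mmp12, Mmp14, Mmp19 and Timp1 rose, and Timp2 and Timp3 fell, whichever feed the challenged mice had received. Mmp2, Mmp3, Mmp8 and Mmp9 were not called. Over all kept probes, 22.1% were called in Ctrl-F compared to NT (10.4% higher, 11.7% lower), 19.1% in Cap-F (9.53% higher, 9.59% lower) and 20% in ODNcap-F (9.66% higher, 10.4% lower). Without the limit on the fold change the counts of members were 7, 7 and 8, where 61%, 56% and 59% of all probes passed. The members were chosen with earlier results of these data known, so these counts do not measure an excess of the family over those shares. The median log2 difference of the 10 members from NT was 0.07, 0.10 and -0.16 in the same order, and that of all probes -0.10, -0.10 and -0.11. The 3 comparisons share the same NT mice. In whole-lung RNA, a change in the number of cells of a type cannot be told apart from a change of RNA per cell.

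**Figure D1:**
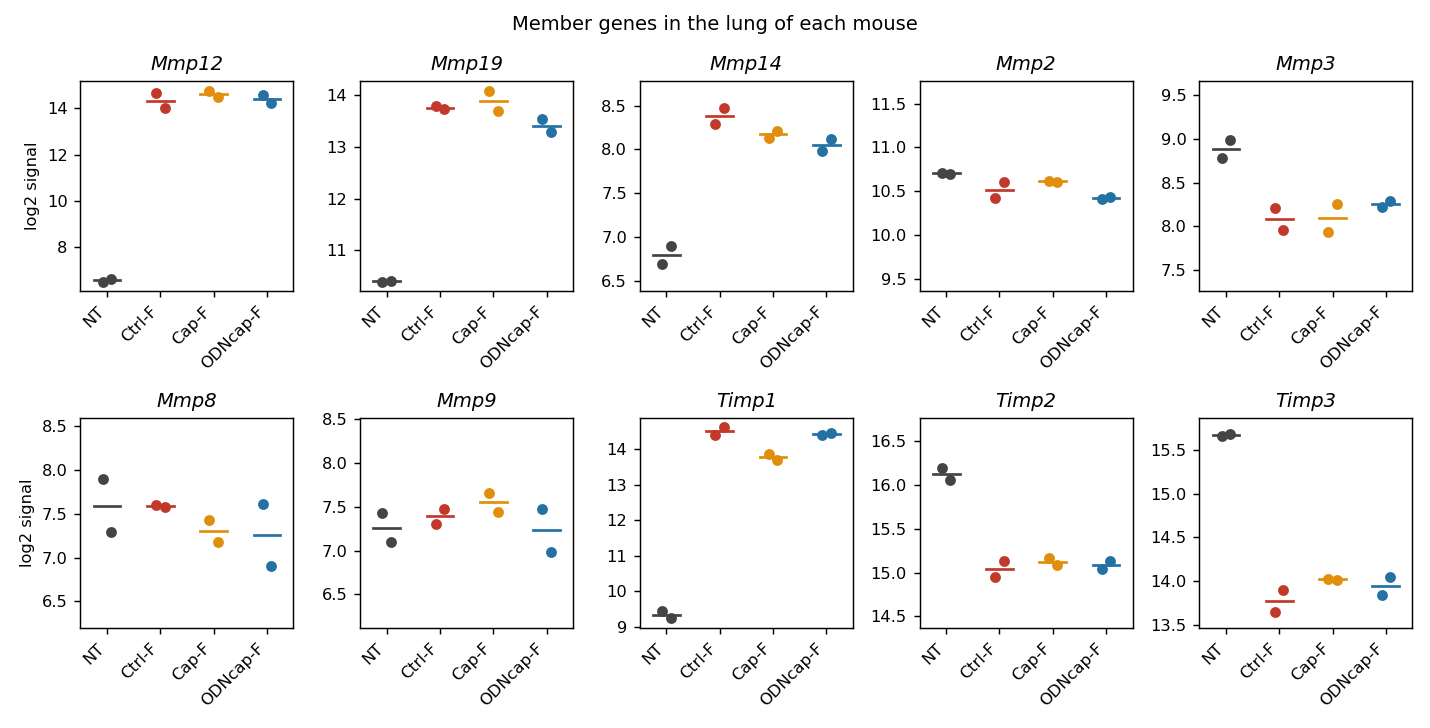
Log2 signal (y axis) of the 10 genes in each mouse (points, 2 per group) with the group mean (bar). The OVA-challenged mice lie above both NT mice for Mmp12, Mmp19, Mmp14 and Timp1 and below them for Timp2, Timp3 and Mmp3, and each panel has its own y axis.

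Mmp12, the macrophage elastase, showed the widest range of the 10 genes. Its log2 signal was 6.51 and 6.64 for NT, 14.68 and 14.01 for Ctrl-F, 14.77 and 14.49 for Cap-F and 14.60 and 14.24 for ODNcap-F. All 6 OVA-challenged mice lay far above both NT mice, and the 3 feeding groups overlapped each other. The difference from NT was 7.77 (SE 0.24, 218-fold, adjusted p = 1.01e-05) in Ctrl-F. It was 8.06 (266-fold, adjusted p = 1.06e-05) in Cap-F and 7.85 (230-fold, adjusted p = 1.06e-05) in ODNcap-F. The gene carries 2 further probes, and both were higher with OVA. Both were kept only through the groups in which they were high, so that their direction is no separate support. One of these was well above background in 1 of the 2 NT mice and rose by 8.98, 8.83 and 8.57. The other was not well above background in NT, which gives a bound of at least 401-fold, 348-fold and 289-fold in the same order of groups.

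Mmp19 encodes a secreted proteinase that cuts basement membrane components. Its log2 signal was 10.40 and 10.41 for NT, 13.78 and 13.73 for Ctrl-F, 14.09 and 13.69 for Cap-F and 13.54 and 13.29 for ODNcap-F. The NT mice were within 0.01 of each other, and every OVA-challenged mouse was higher. The rise was 3.36 (SE 0.15, 10.2-fold, adjusted p = 2.95e-05) in Ctrl-F, 3.49 (11.2-fold, 2.98e-05) in Cap-F and 3.01 (8.06-fold, 4.65e-05) in ODNcap-F. A second probe rose by 3.55, 3.51 and 3.15. The 3 named genes outside the group with the nearest pattern over the 8 mice, by the root mean square difference of centered log2 values among 16561 genes, were Itgax (CD11c of macrophages and dendritic cells, 0.11), Olr1 (an oxidized lipoprotein receptor, 0.12) and Pla2g7 (a secreted phospholipase, 0.12). By the same measure the nearest to Mmp12 were Speer2 (0.30), AY761185 (0.32) and AA467197 (0.33). Of these, Speer2 and AY761185 were not well above background in NT.

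Mmp14 is the membrane-anchored proteinase that cuts collagen at the cell surface and activates pro-Mmp2 together with Timp2. Its log2 signal was 6.69 and 6.89 for NT, 8.29 and 8.47 for Ctrl-F, 8.14 and 8.21 for Cap-F and 7.98 and 8.12 for ODNcap-F. All OVA-challenged mice were above NT, and the ODNcap-F mice were both below the mice of the other feeding groups. The rise was 1.59 (SE 0.11, 3.01-fold, adjusted p = 0.000111) in Ctrl-F, 1.38 (2.60-fold, 0.000213) in Cap-F and 1.26 (2.39-fold, 0.000276) in ODNcap-F. With normexp background correction the rises in Cap-F and ODNcap-F were 0.99 and 0.91, under the fold limit. Nearest in pattern were Marcksl1-ps4 (0.09), Haus8 (0.10) and Gabrr1 (0.11).

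The gelatinases, which digest denatured collagen and the collagen of basement membranes, stood apart from these genes. Mmp2, made mainly by stromal cells, had log2 signals of 10.70 and 10.70 for NT, 10.42 and 10.60 for Ctrl-F, 10.62 and 10.61 for Cap-F and 10.41 and 10.43 for ODNcap-F. All 6 OVA-challenged mice were a little below NT. The differences were -0.19 (95% interval -0.39 to 0.004), -0.09 (-0.28 to 0.11) and -0.28 (-0.48 to -0.09), and the last alone passed the adjusted p (0.0247) but not the fold limit. Mmp9, abundant in neutrophils and macrophages, had log2 signals of 7.43 and 7.10 for NT, 7.31 and 7.48 for Ctrl-F, 7.66 and 7.44 for Cap-F and 7.48 and 6.98 for ODNcap-F. The groups overlapped in Ctrl-F and ODNcap-F, and no difference passed the test. The intervals of the difference from NT were -0.36 to 0.62, -0.20 to 0.77 and -0.52 to 0.45. Its second probe gave -0.31, 0.10 and -0.52, none past the test either.

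Mmp3 and Mmp8 lie in the same cluster as Mmp12. Mmp3, stromelysin, cuts proteoglycans and fibronectin and activates other pro-proteinases. Its log2 signal was 8.78 and 8.98 for NT, 8.21 and 7.96 for Ctrl-F, 7.94 and 8.25 for Cap-F and 8.22 and 8.29 for ODNcap-F. All OVA-challenged mice were lower than NT, and the group means differed by -0.80, -0.79 and -0.63 (adjusted p = 0.00433, 0.00509 and 0.0116), which is under 2-fold. Its window shares the TGAGTCA match with that of Mmp12, whose signal moved the other way. Mmp8, the neutrophil collagenase, had log2 signals of 7.90 and 7.29 for NT, 7.61 and 7.58 for Ctrl-F, 7.43 and 7.17 for Cap-F and 7.61 and 6.90 for ODNcap-F. Its mice differed by up to 0.71 within a group, and the intervals of the difference from NT ran from -0.70 to 0.70, from -0.99 to 0.41 and from -1.04 to 0.37.

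In the RefSeq gene table (GRCm38.p6), 10 proteinase genes follow one another on chromosome 9, namely Mmp13, Mmp12, Mmp1b, Mmp3, Mmp1a, Mmp10, Mmp8, Mmp27, Mmp20 and Mmp7. Of these, 5 were measured, and Mmp13 and Mmp12, which stand side by side at one end, were higher in Ctrl-F compared to NT by 6.24 and 7.77. Mmp3 and Mmp8, which lie further along, were not called. Mmp7, at the other end, was not well above background in NT, and its rise in Ctrl-F is known only as at least 1.74-fold, under the fold limit.

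Timp1, the inducible inhibitor, was the member with the second largest rise. Its log2 signal was 9.45 and 9.24 for NT, 14.40 and 14.62 for Ctrl-F, 13.88 and 13.70 for Cap-F and 14.42 and 14.45 for ODNcap-F. All OVA-challenged mice were above NT, and both Cap-F mice were below the mice of the other feeding groups. The rise was 5.16 (SE 0.12, 35.8-fold, adjusted p = 5.08e-06) in Ctrl-F, 4.44 (21.7-fold, 7.95e-06) in Cap-F and 5.09 (34-fold, 5.61e-06) in ODNcap-F. The nearest patterns were those of Guca2a (guanylin, 0.18), Spp1 (osteopontin, a matrix protein that proteinases cut, 0.19) and Bcl2l15 (a Bcl2-like protein, 0.21).

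Timp3 is the inhibitor that stays bound to the matrix and also blocks ADAM proteases. Its log2 signal was 15.66 and 15.68 for NT, 13.65 and 13.90 for Ctrl-F, 14.03 and 14.01 for Cap-F and 13.84 and 14.04 for ODNcap-F. It fell by 1.89 (SE 0.11, adjusted p = 7.36e-05), 1.65 (0.000133) and 1.73 (0.00011), which leaves 0.27, 0.32 and 0.30 of the NT signal. A second probe fell by 1.61, 1.43 and 1.39. The nearest patterns were those of Tbx3 (a transcription factor, 0.04), Pxdc1 (0.04) and Kank3 (a cytoskeletal adaptor, 0.06).

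Timp2, the constitutive inhibitor that also takes part in pro-Mmp2 activation, depended on the probe. By the probe that stands for the gene, the log2 signal was 16.19 and 16.06 for NT, 14.95 and 15.14 for Ctrl-F, 15.16 and 15.09 for Cap-F and 15.04 and 15.13 for ODNcap-F. It fell by 1.08 (SE 0.10, adjusted p = 0.000273), 1.0 (0.000432) and 1.04 (0.000358), just past the fold limit. Nearest in pattern to this probe were Gpsm1 (0.04), Peli2 (0.04) and Lamb2 (0.05). The other probe lay between 11.754 and 12.002 in all 8 mice, and its differences from NT were 0.11, 0.07 and 0.11 with adjusted p of 0.33, 0.508 and 0.332. Averaged over both probes the differences were -0.49, -0.46 and -0.47, and with scaling to the 75th percentile -0.76, -0.81 and -0.75, so that Timp2 was no longer called in either case. Leaving out single mice gave between -1.18 and -0.93. The call is lost without the first Ctrl-F mouse (-0.99) in Ctrl-F, without the first NT (-0.93) or the second Cap-F mouse (-0.96) in Cap-F, and without the first NT (-0.97) or the first ODNcap-F mouse (-0.99) in ODNcap-F.

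**Figure D2:**
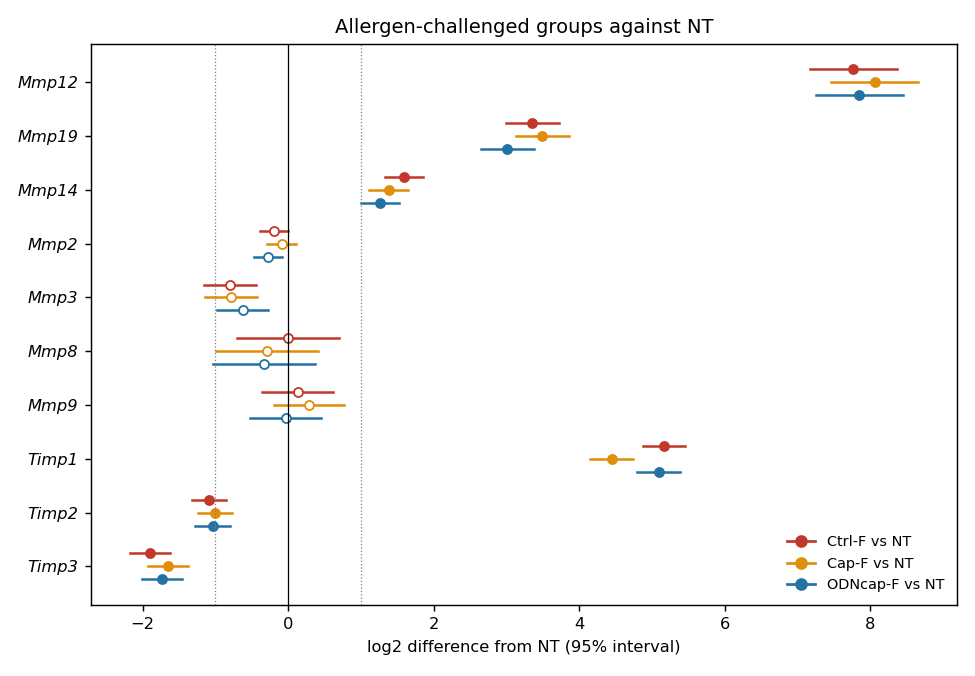
Log2 difference from NT (x axis, point) with its 95% interval (line) for the 10 genes in the 3 OVA-challenged groups; filled points were called, open points were not, and dotted lines mark a 2-fold change. The 3 groups lie side by side for each gene, with Mmp12 at 7.77 to 8.06 and Timp3 at -1.89 to -1.65 as the outermost values.

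**Figure D3:**
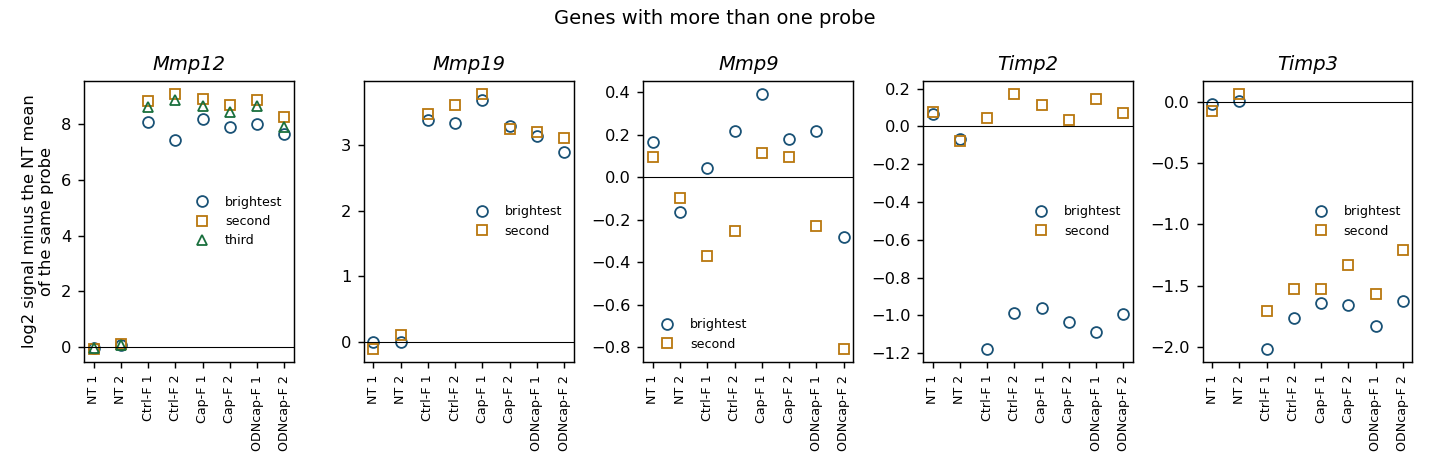
Log2 signal minus the NT mean of the same probe (y axis) in each mouse (x axis) for the 5 genes with more than 1 probe. The probes of Mmp12, Mmp19 and Timp3 moved the same way from NT, whereas for Timp2 the brighter probe fell by about 1 and the other stayed near 0. The 2 dimmer Mmp12 probes were kept only through the groups in which they were high.

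The rest of the proteinase family was in part too dim to measure in these lungs. Of 16 further proteinases, 15 had a probe and 8 were measured. Mmp13, Mmp25 and Mmp7 passed the limits upward in each OVA-challenged group and none fell past them, but Mmp25 and Mmp7 were kept only through the groups in which they were high, so that their count is no result. Mmp13, a collagenase, had log2 signals of 4.19 and 4.45 for NT, 10.25 and 10.87 for Ctrl-F, 10.25 and 10.07 for Cap-F and 10.10 and 9.48 for ODNcap-F. Every OVA-challenged mouse was far above NT, by 6.24 (75.8-fold, adjusted p = 3.01e-05), 5.85 (57.5-fold, 4.34e-05) and 5.47 (44.4-fold, 5.08e-05) in the group means. Mmp25, a membrane-anchored proteinase of leukocytes, was not well above background in NT and rose at least 10.7-fold, 11-fold and 8.89-fold (adjusted p = 0.000342, 0.000394 and 0.000491). Mmp7, matrilysin of epithelium, was not well above background in NT either. Its bounds were at least 1.74-fold, 1.80-fold and 1.34-fold, all under the fold limit, with adjusted p of 0.000624, 0.000663 and 0.00186, and it was well above background in 1 of the 2 ODNcap-F mice. Mmp10, stromelysin-2, was well above background on no array, as were Mmp1a, Mmp1b, Mmp16, Mmp20, Mmp21 and Mmp24.

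Other inhibitors moved in both directions. Reck, the membrane-anchored inhibitor of proteinases, had log2 signals of 11.97 and 12.19 in NT and between 9.92 and 10.37 in the 6 OVA-challenged mice. It fell by 2.13 (SE 0.11, adjusted p = 4.7e-05), 1.77 (1e-04) and 1.95 (6.88e-05). Pcolce, which enhances the processing of procollagen, fell by 1.11 and 1.12 in Ctrl-F and Cap-F, and its difference in ODNcap-F was -0.97 (adjusted p = 0.000435), just under the fold limit. A2m, a broad plasma protease inhibitor, was not well above background in NT or Cap-F and rose at least 2.49-fold in Ctrl-F and, with 1 of 2 mice well above background, at least 1.39-fold in ODNcap-F. This gene was kept only through Ctrl-F, where it was high, so that its direction is no result. Timp4, the fourth inhibitor, had log2 signals of 6.46 and 6.84 for NT, 7.24 and 7.16 for Ctrl-F, 7.21 and 8.14 for Cap-F and 7.72 and 8.27 for ODNcap-F. It was called in Cap-F (1.03, adjusted p = 0.0421) and ODNcap-F (1.35, 0.0158) but not in Ctrl-F (0.55, 0.202), and whether these rises differ from that in Ctrl-F was tested in the comparisons between feeds, where none was called. Timp4 is best known from the heart, and the 6 cardiomyocyte markers (Myh6, Myl7, Tnnt2, Tnni3, Ttn, Nppa) varied between mice in these lungs. Their log2 mean was 10.27 and 9.28 for NT, 6.83 and 7.30 for Ctrl-F, 6.90 and 9.44 for Cap-F and 8.99 and 9.70 for ODNcap-F. In Cap-F the mouse with the higher Timp4 also had the higher marker mean, whereas NT had high markers and the lowest Timp4. Their part in the Timp4 values was not tested.

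**Figure D4:**
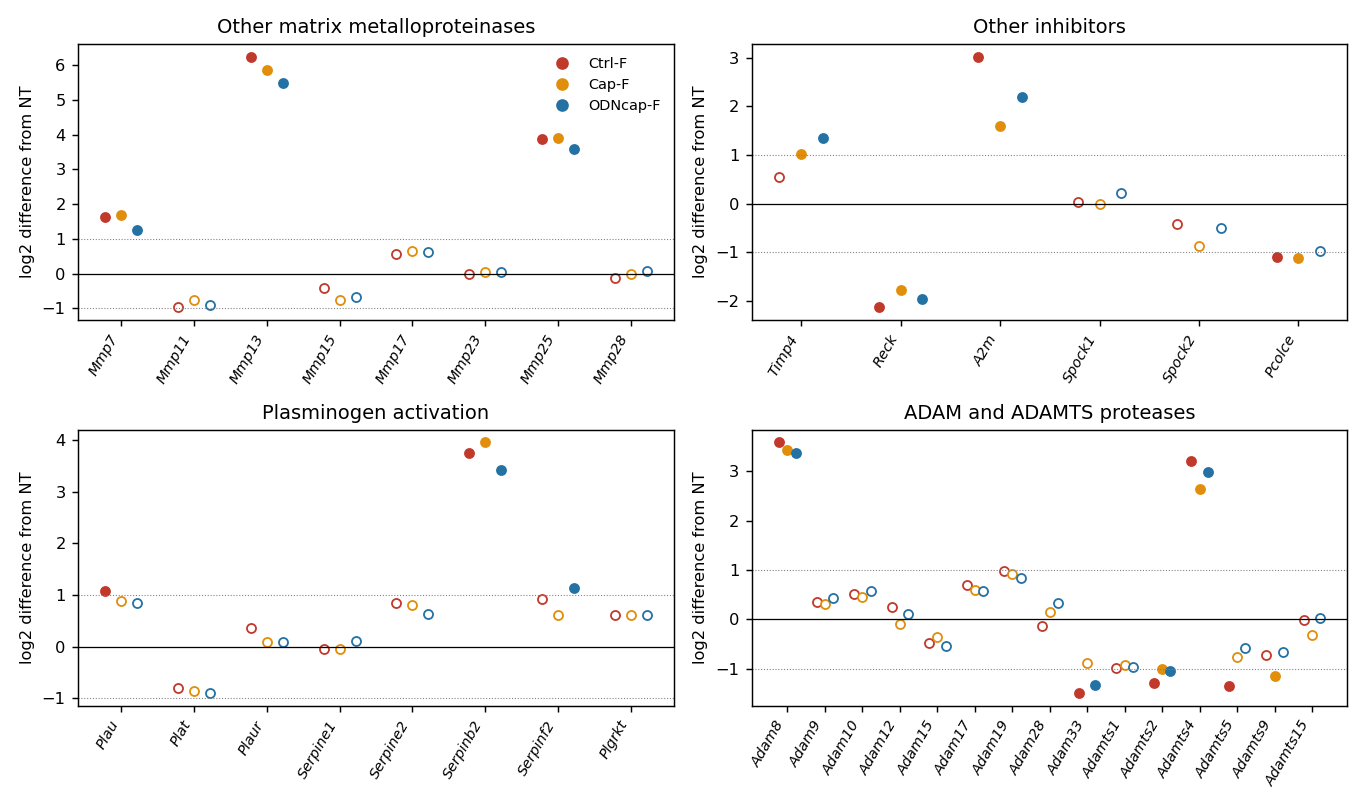
Log2 difference from NT (y axis) in the 3 OVA-challenged groups for the measured genes of 4 related lists; filled points were called, open points were not, and dotted lines mark a 2-fold change. Mmp13, Mmp25, Serpinb2, Adam8 and Adamts4 lie highest and Reck lowest; for genes not above background in NT (Mmp7, Mmp25, A2m) the plotted value is the fitted one, not the bound.

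Enzymes that activate or cooperate with the family were measured too. Of 8 genes of plasminogen activation, 2, 1 and 2 rose with standard, Cap and ODNcap feed, and none fell past the limits. Serpinb2, an inhibitor of urokinase, rose by 3.74, 3.95 and 3.43 and was called in all 3 groups. It was well above background in only 1 of the 2 NT mice and was kept only through the groups in which it was high, so that the count is no result. Plau, urokinase itself, rose past the limits in Ctrl-F (1.08, adjusted p = 0.00151), with differences of 0.88 and 0.83 in Cap-F and ODNcap-F. Serpinf2, the plasmin inhibitor, differed from NT by 0.91 in Ctrl-F (adjusted p = 0.084), 0.60 in Cap-F (0.225) and 1.14 in ODNcap-F (0.0448), and only the last was called. Its 2 ODNcap-F mice were at 5.33 and 6.45, and ODNcap-F differed from Ctrl-F by 0.22 (95% interval -0.72 to 1.17), which was not called.

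Of 15 ADAM and ADAMTS proteases, 2 rose in each group, and 3, 2 and 2 fell, beside 22.1%, 19.1% and 20% of all kept probes called in either direction. Adam8, a surface protease of leukocytes, rose by 3.59, 3.44 and 3.38 (12-fold, 10.9-fold and 10.4-fold). Adamts4, an aggrecan- and versican-cutting protease, rose by 3.20, 2.64 and 2.996. Adamts2, which trims procollagen, fell by 1.28, 1.0 and 1.04. Adam33, a membrane protease, fell by 1.49 in Ctrl-F and 1.32 in ODNcap-F, and its difference in Cap-F was -0.88 (adjusted p = 0.00094), under the fold limit. Adamts5, an aggrecan-cutting protease, fell by 1.36 in Ctrl-F (adjusted p = 0.021), with -0.76 and -0.58 in Cap-F and ODNcap-F, and Adamts9, another protease of proteoglycans, fell by 1.16 in Cap-F (0.0308), with -0.72 and -0.67 in Ctrl-F and ODNcap-F. No difference between feeds was called for any of these 4 genes.

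Among 15 genes of elastic fiber and basement membrane, the substrates of the family, Spp1 rose by 5.07, 4.61 and 4.88 and tenascin C (Tnc) by 1.78, 1.51 and 1.76, while laminin beta 2 (Lamb2) fell by 1.11, 1.05 and 1.11. These were the genes of that list past the limits, beside 22.1%, 19.1% and 20% of all kept probes called in either direction. The median difference of the list was -0.54, -0.54 and -0.55. Of 8 receptors and cofactors, 3 rose in each group, beside 10.4%, 9.53% and 9.66% of all kept probes called higher. The 3 genes were Cd44, which docks Mmp9 at the cell surface (1.32, 1.24 and 1.18), Lcn2, which binds Mmp9 (2.38, 2.25 and 2.75), and Thbs1, thrombospondin (1.41, 1.37 and 1.42). Of 15 measured regulators, 5 rose in each group and none fell past the limits. Il6 (well above background in 1 of the 2 NT mice) and Il13 were kept only through the groups in which they were high, so that the count is no result. Il4 rose by 3.90, 3.78 and 3.86, Il6 by 3.92, 3.10 and 3.85, Osm by 2.29, 1.96 and 2.10, and Tnf by 1.31, 1.48 and 1.16, while Il13, not well above background in NT, rose at least 2.93-fold, 2.39-fold and 2.08-fold. The NT mice of Tnf were at 5.28 and 6.62, a gap about as large as its rises, and its OVA-challenged mice at 7.11 to 7.59. Of the AP-1 subunits, Fos (0.28, 0.02 and 0.41), Fosl2 (-0.09, -0.28 and -0.12), Jun (-0.74, -0.94 and -0.86) and Junb (0.34, 0.24 and 0.28) were not called.

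The lists of cell type markers did not share a direction. Of all kept probes, 10.4%, 9.53% and 9.66% were called higher in the 3 groups, and 11.7%, 9.59% and 10.4% lower. Of 10 macrophage markers, 5, 6 and 6 rose and 2 fell in each group. Itgax rose by 3.37, 3.30 and 2.996 and Cd68 by 2.22, 2.04 and 1.96, whereas Marco, a scavenger receptor of alveolar macrophages, fell by 3.98, 4.15 and 3.74, and Lyz2 fell by 1.31, 1.06 and 1.45. The log2 of the summed signal of the list, in which Chil3 was the brightest with OVA, was 15.94 and 15.86 in NT. It was between 17.55 and 17.65 in the OVA-challenged mice. The 6 eosinophil markers had a median difference from NT of 3.46, 3.51 and 3.32. The log2 of their summed signal, in which Ear1 was by far the brightest, was 12.52 and 12.37 in NT and 13.71 to 14.12 with OVA. Past the limits 6, 5 and 6 of them rose, but Epx, not well above background in NT, was kept only through the groups in which it was high, so that the count is no result.

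Neutrophil markers, which bear on Mmp8 and Mmp9, went both ways. The counts of this paragraph stand beside the same shares of all kept probes. These were 10.4%, 9.53% and 9.66% called higher, and 11.7%, 9.59% and 10.4% called lower. Of 8 neutrophil markers measured, 2 rose in each group (Retnlg and Ltf), and 1, 1 and 2 fell (Camp, and S100a9 in ODNcap-F). The NT mice of Camp were far apart, at 10.54 and 8.70, against 7.14 to 8.01 with OVA. The ODNcap-F mice of S100a9 were at 14.52 and 13.55, against 15.34 and 14.99 for NT. The log2 of the summed signal of the list, in which Csf3r was the brightest, was 17.00 and 16.87 in NT and 16.34 to 16.68 with OVA. The mean log2 signal of the list overlapped, at 11.42 and 10.89 in NT and 11.12 to 11.50 with OVA. Markers of stromal cells, a main source of Timp2, Timp3 and Reck in the lung, differed from each other. Of 8 fibroblast markers 5, 3 and 2 fell, among them Pdgfra, which fell by 1.61, 1.56 and 1.52, and Tcf21, which fell by 1.95, 2.00 and 1.91, and 1 rose in each group (Col3a1, by 1.28, 1.49 and 1.47). Col1a1 had a mean of 12.23 in NT and of 12.73, 13.09 and 12.85 in the OVA-challenged groups. The log2 of the summed signal of the fibroblast list, in which Col1a2 was the brightest, overlapped between NT (15.62 and 15.68) and OVA (15.49 to 15.94). The mean log2 signal of the same list did not, at 12.07 and 12.16 in NT and 11.18 to 11.74 with OVA. Of 5 smooth muscle markers 0 were called in each group, with median differences from NT of -0.28, 0.19 and 0.001. Of 6 endothelial markers, 4 fell in each group, and the log2 of the summed signal went from 16.40 and 16.43 to between 15.35 and 15.72. Of the 8 epithelial markers, 2 fell in each group and none rose past the limits. Scgb3a2, a secretoglobin of airway secretory cells, fell by 4.12, 4.15 and 3.72 and Hopx, of alveolar type 1 cells, by 1.85, 1.85 and 1.73. Sftpc (0.04, 0.02 and 0.04) and Scgb1a1 (-0.08, -0.02 and -0.04) were not called, but both lay between 17.52 and 17.64 in every mouse. At that end of the scale quantile normalization sets the values by rank, so these differences cannot show a stable level. Of the markers named here none was at background in every mouse. The part of these cells in the values of the members was not tested.

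Between the feeding groups, none of the 10 genes was called by limma in ODNcap-F compared to Ctrl-F, in ODNcap-F compared to Cap-F or in Cap-F compared to Ctrl-F. Over all kept probes 0%, 0.00269% and 0.00269% were called, so that the same holds for nearly every probe. At an unadjusted p under 0.05 the members counted 1 (Mmp14), 2 (Mmp19 and Timp1) and 1 (Timp1), with 6.73%, 13% and 16.2% of all probes at that level. The members' median differences were -0.08, -0.10 and 0.09, against -0.01, -0.01 and -0.01 over all probes.

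Timp1 differed most between the feeds. Cap-F was lower than Ctrl-F, with a log2 difference of -0.72 (95% interval -1.01 to -0.43, a ratio of 0.607), with a limma adjusted p of 0.132. ODNcap-F was above Cap-F by 0.65 (0.35 to 0.94, 1.56-fold, limma adjusted p = 0.21), and ODNcap-F and Ctrl-F differed by -0.08 (-0.37 to 0.22). The local-pooled-error test of the study's methods, which pools the spread between mice over probes of like intensity, gave Timp1 an adjusted p of 9.18e-06 for Cap-F compared to Ctrl-F and of 0.00878 for ODNcap-F compared to Cap-F. No other member passed an adjusted p under 0.05 in that test between feeds, and 0.719%, 0.722% and 1.29% of all probes did in ODNcap-F compared to Ctrl-F, ODNcap-F compared to Cap-F and Cap-F compared to Ctrl-F. None of these Timp1 differences reached 2-fold. Cap-F and ODNcap-F lay in the same slide row, whereas Ctrl-F lay in the other.

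Mmp14 and Mmp19 were lowest in ODNcap-F among the OVA-challenged groups. The log2 difference of Mmp14 from Ctrl-F was -0.33 (95% interval -0.59 to -0.07, limma adjusted p = 0.74). That of Mmp19 was -0.48 from Cap-F (-0.84 to -0.11, limma adjusted p = 0.307) and -0.34 from Ctrl-F (-0.71 to 0.02, 0.75). In each of the Mmp14 and Mmp19 pairs both ODNcap-F mice lay below both mice of the other group. Itgax, the gene nearest to Mmp19 in pattern, had log2 signals of 14.68 and 14.78 for Ctrl-F, 14.77 and 14.55 for Cap-F and 14.55 and 14.16 for ODNcap-F. Both ODNcap-F mice were below both Ctrl-F mice, with a difference of -0.375 (95% interval -0.745 to -0.006, limma adjusted p = 0.74). This difference was close in size to that of Mmp19, but Itgax was picked for its nearness to Mmp19 over these same mice. The likeness therefore follows largely from that choice and is no separate evidence. Of the 10 macrophage markers, 5 did not overlap between these groups, with Itgax and Cd68 (2 genes) lower for ODNcap-F and Mrc1, Chil3 and Fabp4 (3 genes) higher. The log2 of the summed signal of the 10, in which Chil3 was the brightest, was 17.62 and 17.65 for Ctrl-F and 17.65 and 17.55 for ODNcap-F. The part of macrophages in the Mmp14 and Mmp19 values was not tested. Of the 10 genes, 3 did not overlap between ODNcap-F and Ctrl-F, where 35.4% of all probes did not, 4 between ODNcap-F and Cap-F (44.7% of probes), and 5 between Cap-F and Ctrl-F (51.2% of probes). The counts are close to those shares. Timp3 differed by 0.16 (-0.11 to 0.44) between ODNcap-F and Ctrl-F. Mmp12 differed by 0.08 (-0.52 to 0.68) by its brightest probe, whereas its 2 further probes gave -0.41 and -0.475 (limma adjusted p = 0.765 and 0.76), so the sign depended on the probe. By the probes that stand for the genes, the intervals of all 10 in ODNcap-F compared to Ctrl-F lay between -1.04 and 0.68. The -1.04, that of Mmp8, was the only bound beyond a 2-fold change. None of the 75 measured genes of the related lists was called between the feeds either.

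**Figure D5:**
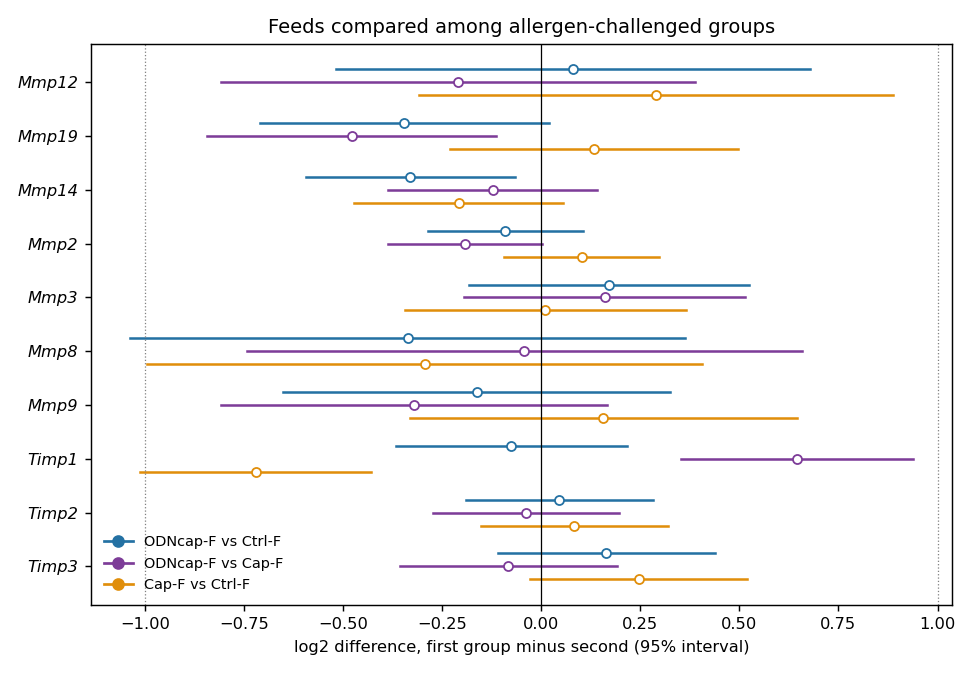
Log2 difference between feeding groups (x axis, first group minus second, point) with its 95% interval (line) for the 10 genes; open points were not called, and dotted lines mark a 2-fold change. Timp1 stands apart in both comparisons with Cap-F, at -0.72 and 0.65, and the intervals for Mmp19 in ODNcap-F compared to Cap-F and for Mmp14 in ODNcap-F compared to Ctrl-F also lie off 0.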

How the data were processed

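The lungs of 8 mice in 4 groups of 2 were profiled with 1 Cy3 array per mouse. The authors deposited, for each array, the intensity of every spot after background subtraction and detrending by Agilent Feature Extraction 11.0, with no normalization between arrays, and quantile normalized log2 values for 32312 probes in a single table. Its filter is not given in the sources used here.

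Control spots were dropped, 792 flagged spot values were set to missing, and log2 intensities were averaged over the spots of a probe and quantile normalized. A probe was kept if some group had it well above background in both mice (37116 of 56605). All 16 probes of the 10 genes were kept, and 14 were well above background on every array. Gene names came from a RefSeq table, which named 32994 probes. The kept probe with the highest mean signal stands for a gene. Where no array of a group was well above background, a fold is a bound against the lowest signal well above background on each array. No spot was saturated, and precision is limited by the number of arrays.

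The 8 arrays were fitted together in R 4.3.3 with limma 3.58.1 (statmod 1.5.0 and data.table, version 1.17.8, were loaded too), with 4 groups and no covariate, compared in 6 pairs, with 4 residual degrees of freedom, to which moderation added 1.96. The script and the local-pooled-error test (100 bins, spline of 10 degrees of freedom) were tested on simulated data. Nothing in the labels gives litters or cages, so p-values measure the spread between these mice.

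The members and gene lists were chosen with earlier results of these data known. Named beside the members are genes of the related lists called in any comparison (at most 5 per list and comparison), Mmp7, Mmp10, Mmp13 and Timp4, marker genes, and the 3 genes with the nearest pattern for a called member. AP-1 subunits, and members of the chromosome 9 cluster, were added after their values had been seen. Alternatives were 75th percentile scaling, normexp (offset 50) on median signals, the deposited table, no filter, a filter over all arrays, a replicate block, an intensity trend, fits of 2 groups, each mouse left out, the mean of a gene's probes, the local-pooled-error test and no fold limit.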

Additional observations from a re-analysis of the deposited data

How the results depend on the processing

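The counts of members called against NT, 6 in each group, lay between 5 and 6 under the alternatives that kept the fold limit, single mice left out included, and were 7, 7 and 8 without it. The counts between feeds were 0 under every alternative run, the local-pooled-error test with the fold limit included; by adjusted p alone that test passed Timp1 in both comparisons with Cap-F. Mmp12, Mmp19, Timp1 and Timp3 were called against NT in all of them. Calls were lost by Timp2, with 75th percentile scaling, the mean of its probes, the deposited table (Cap-F, -0.997) and some mice left out, and by Mmp14 in Cap-F (0.989) and ODNcap-F (0.905) with normexp correction; the cause was not tested. In the fit with the replicate number as a block, 6, 6 and 6 members were called against NT and 0, 0 and 0 between feeds, as without it. Deviations of same-numbered mice correlated at -0.012 to 0.161 over the 6 pairs of groups, so the numbers did not pair the mice. Where a mouse was left out, the lone mouse was taken to have the spread of the remaining groups. With 2 mice per group, differences between feeds under the intervals given could not be resolved.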
